A study of Mus musculus with 5 samples.

Results

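The endothelin and nitric oxide genes are 7 of the 19736 genes with a molecule in any library of this mouse liver data set. They were chosen by name: Edn1 (endothelin 1), Ece1 (the endothelin converting enzyme), the endothelin receptor genes Ednra and Ednrb, Nos3 (endothelial nitric oxide synthase), and Gucy1a1 and Gucy1b1, the subunits of soluble guanylate cyclase. The selection rule is the names alone and uses no measured value, though results of these data were known when the set was proposed. Edn1 encodes a precursor that is cut to big endothelin and then, by the Ece1 enzyme, to a strong vasoconstrictor peptide. Ednra and Ednrb encode G-protein-coupled receptors: the first is known for the contraction of smooth muscle and stellate cells, and the second, on endothelium, for nitric oxide release and removal of the peptide. Nitric oxide made by the Nos3 enzyme from arginine diffuses to neighbouring contractile cells, where the Gucy1a1-Gucy1b1 heterodimer answers with cyclic GMP and the cell relaxes. In the liver the stellate cell wraps the sinusoid and is the best known contractile partner of its endothelium.

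The pIVCL mice had a partial ligation of the inferior vena cava, a model used to raise venous pressure in the liver, and the comparison mice had sham surgery. Surgery was done on wild-type males aged 9 weeks and livers were taken 2 weeks after it. The labels name no transgene and no other agent in either group. Livers were digested by perfusion with pronase and collagenase, hepatocytes were depleted by low-speed spins and dead cells and erythrocytes by a Percoll gradient, and about 10000 viable cells were captured with whole-transcriptome BD Rhapsody chemistry, so the data describe non-parenchymal cells that survived this preparation.

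There were 3 pIVCL libraries (pIVCL 1 to 3) and 2 sham libraries (sham 1 and 2), with 2680 to 5000 cells in pIVCL and 4735 and 4056 in sham. Median depth was 2439.5 to 4226.5 molecules per cell in pIVCL and 5416 and 5125 in sham, so sham was deeper. Of 19815 cells, 16672 were retained. The filters left out 2.95 to 30.3% of cells in pIVCL, highest in pIVCL 2, and 6.21 and 5.55% in sham. Pairs of libraries shared 8 to 30 cell barcodes. The labels do not say whether a library is a separate animal, so every p-value measures the spread between these libraries, which may be technical. Batch also overlapped with group: pIVCL 1 and both sham libraries carry the batch label 2021.3, and pIVCL 2 and 3 carry 2021.7. A fit within batch 2021.3, or with batch as a term, thus takes its pIVCL effect from pIVCL 1 alone. With 3 libraries against 2, a two-sided exact permutation test cannot go below p = 0.2.

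Cell classes were named by clustering without the 7 genes and without the pathway genes described further on, and by marker genes, so each name means cells like that type. The endothelial class held 1509, 1636 and 709 cells in pIVCL 1 to 3 and 2669 and 2351 in sham 1 and 2. The stellate class held 272, 325 and 110 cells in pIVCL and 82 and 34 in sham, and a fibroblast and mesothelial class 46, 35 and 52 against 54 and 76. Endothelial cells were divided further into pericentral sinusoidal, periportal sinusoidal, central vein, portal and arterial large vessel, and cycling cells. Central vein cells made up 5.37, 4.65 and 7.76% of endothelial cells in pIVCL and 1.39 and 0.98% in sham. Portal and arterial cells made up 2.39, 2.20 and 3.10% in pIVCL and 5.92 and 5.91% in sham. These subtype shares rest on genes that themselves differed between the groups. Pericentral and periportal sinusoidal names exist in both groups because each gene was first centred on its mean in the library. In the clustering of all cells without centring, cluster 11, led by Cyp26b1, Wnt2 and Kit, held 43, 8 and 2 of the 569, 599 and 245 pericentral sinusoidal cells in pIVCL 1 to 3 and 1009 and 832 of the 1180 and 1012 in sham 1 and 2. Cluster 25, led by Esm1, Lyve1 and Angpt2, held 295, 441 and 219 of them in pIVCL and 20 and 17 in sham. The pericentral comparisons below therefore set mostly cluster 25 cells of pIVCL against mostly cluster 11 cells of sham. Cluster 25 also held 149 of 783, 214 of 829 and 140 of 330 periportal cells in pIVCL. In sham it held 11 of 1226 and 7 of 1109. Of central vein cells it held 23 of 81, 27 of 76 and 14 of 55 in pIVCL and 0 of 37 and 1 of 23 in sham. Levels below are counts of molecules of the gene in a cell population and library, scaled to 1000000 molecules of all genes there (CPM), and they are compared within a gene only, since gene length was not accounted for.

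The members differed in the cells that held them. Edn1 and Nos3 molecules lay mostly in endothelial cells, which held 60.1 to 94.3% of Edn1 and 70.1 to 94.1% of Nos3 molecules over the 5 libraries. Ednra, Gucy1a1 and Gucy1b1 had their highest levels in stellate cells, with the fibroblast and mesothelial class next. Ednrb was high in 2 places, the stellate cell and the portal and arterial endothelium. Ece1 had similar levels in endothelial cells (329 ± 33.3 CPM, SD over 5 libraries) and stellate cells (320 ± 62.3 CPM), which did not differ beyond their spread. The next class, conventional dendritic cells, averaged 151 ± 20.9 CPM of Ece1 and did not overlap with either.

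**Figure D1:**
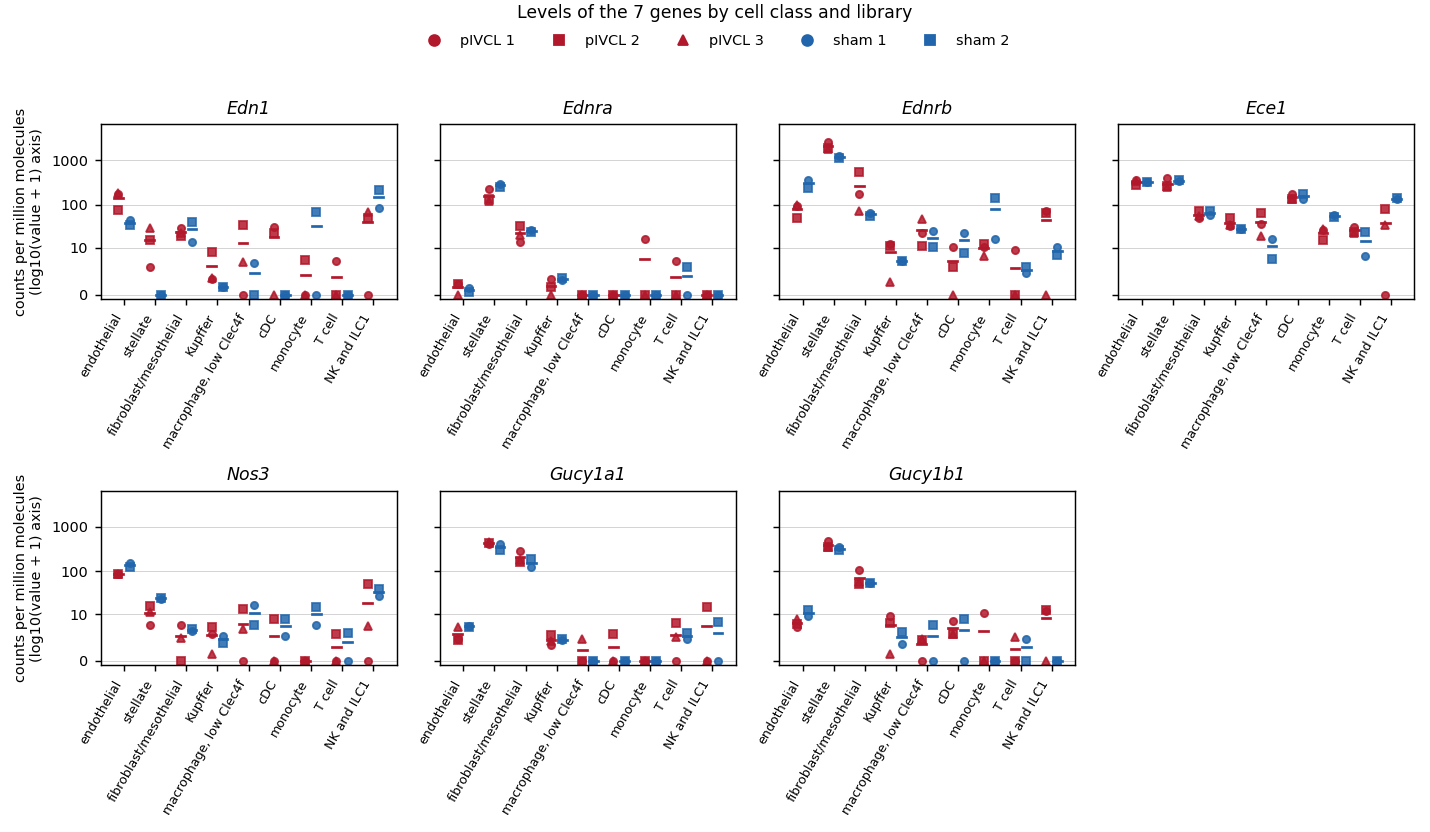
Levels of the 7 genes (CPM, molecules scaled to 1000000 of the class, on a log10(value + 1) axis) in 9 cell classes, 1 symbol per library, pIVCL in red left of sham in blue, with a short line at each group mean. Endothelial Edn1 lay between 78.0 and 185 in pIVCL and at 45.1 and 34.1 in sham, and stellate Ednrb between 1744 and 2605 in pIVCL and at 1276 and 1122 in sham.

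Edn1, the ligand gene, was higher in the endothelium of pIVCL livers. Among the sinusoidal and vessel subtypes, the level within a subtype differed in the sinusoidal cells. The mix of subtypes, with more central vein cells in pIVCL, also entered the endothelial difference, as given further on. In pericentral sinusoidal cells Edn1 stood at 134, 70.5 and 190.4 CPM in pIVCL 1 to 3, from 375, 196 and 242 molecules, and at 3.62 and 4.02 CPM in sham 1 and 2, from 24 and 22 molecules. In periportal sinusoidal cells it stood at 32.4, 26.7 and 67.5 CPM in pIVCL (106, 84 and 88 molecules) and at 2.57 and 1.30 CPM in sham (16 and 7 molecules). Every pIVCL library was above both sham libraries in both zones, pIVCL 3 being the highest. In the vessels that already carried most Edn1 per cell in sham, the groups overlapped. Central vein cells had 1188, 419.6 and 708 CPM in pIVCL and 779 and 754 CPM in sham, and portal and arterial cells 575, 426 and 259.9 CPM in pIVCL and 522 and 397 CPM in sham.

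The fold changes followed these values. By edgeR's quasi-likelihood test with Benjamini-Hochberg adjustment over all genes tested in a population, Edn1 rose by 5.0 ± 0.47 on the log2 scale (estimate ± SE) in pericentral cells (adjusted p = 0.00153, 32.0-fold) and by 4.25 ± 0.48 in periportal cells (adjusted p = 0.00471, 19.1-fold). It gave -0.02 ± 0.37 in central vein cells (adjusted p = 0.99) and -0.14 ± 0.26 in portal and arterial cells (adjusted p = 0.857). The difference between the pericentral and the central vein change was itself called, at 4.99 ± 0.37 (adjusted p = 1.09e-06 by edgeR). That between pericentral and periportal cells was not, at 0.73 ± 0.43 (edgeR adjusted p = 0.491), where 3.84% of all genes were called. That between pericentral and portal and arterial cells was 5.08 ± 0.71 (edgeR adjusted p = 0.0767, 2.38% of all genes called). With 1 library left out it lay between 4.63 and 5.43, and it passed in each such fit other than that without pIVCL 1. Over all endothelial cells Edn1 gave 1.78 ± 0.37 (adjusted p = 0.0439 by edgeR), a call that held without pIVCL 2 (2.08) and was lost when any other library was left out (1.58 to 1.98). Within batch 2021.3 alone the edgeR log2 fold changes were 2.10 in all endothelial cells, 5.09 in pericentral and 3.99 in periportal cells, and with batch as a term the pericentral value was 5.10 (adjusted p = 0.132).

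**Figure D2:**
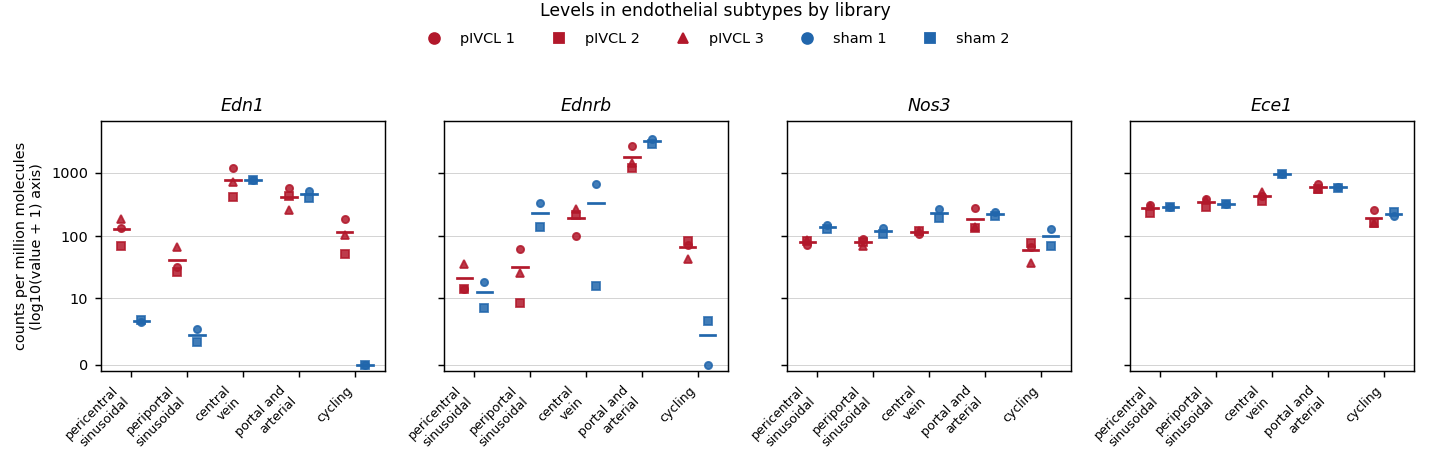
Levels of Edn1, Ednrb, Nos3 and Ece1 (CPM, molecules scaled to 1000000 of the subtype, log10(value + 1) axis) in 5 endothelial subtypes, 1 symbol per library, pIVCL in red left of sham in blue, lines at the group means. Edn1 was at 3.62 and 4.02 in pericentral sham cells against at least 70.5 in every pIVCL library, while central vein and portal and arterial values overlapped.

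More sinusoidal cells held Edn1, as well as more molecules per cell population. After each cell was thinned to 1500 molecules, Edn1 was detected in 11.3, 9.52 and 17.8% of pericentral cells of pIVCL 1 to 3 and in 0.508 and 0.494% of those of sham. Without thinning the shares were 19.9, 17.9 and 37.1% in pIVCL and 1.02 and 0.889% in sham, at median depths of 4567, 4536 and 5076 molecules in pIVCL and 5431 and 5163.5 in sham. Periportal shares, thinned, were 3.19, 2.53 and 7.59% in pIVCL and 0.489 and 0.271% in sham. Kupffer cells, the resident macrophages, taken here to gauge background RNA, gave thinned shares of 0.328 to 0.437% in pIVCL and 0 and 0.193% in sham. In each group every sinusoidal share was above those of Kupffer cells, by less in sham than in pIVCL. The part of background RNA in the low sham shares was not tested. Central vein cells with Edn1 came to 61.7, 35.5 and 50.9% in pIVCL and 51.4 and 47.8% in sham, again overlapping.

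The pericentral sinusoidal class was made of a pair of sub-clusters, numbered 1 and 2, of which sub-cluster 2 also carried markers of central vein and angiogenic endothelium. Sub-cluster 2 held most pericentral cells of pIVCL (340 of 569, 400 of 599 and 175 of 245) and sub-cluster 1 most of those of sham (635 of 1180 and 569 of 1012). Edn1 in sub-cluster 2 was at 209, 92.0 and 236 CPM in pIVCL and 7.95 and 7.48 CPM in sham. In sub-cluster 1 it was at 17.5, 26.4 and 64.7 CPM in pIVCL and at 0 CPM in sham 1 and 1.30 CPM in sham 2, the sham 2 value from 4 molecules. In both sub-clusters every pIVCL library was above both sham libraries. When endothelial cells were sub-clustered without centring, the pericentral name went to 27, 7 and 0 cells in pIVCL and 1062 and 878 in sham, too few in pIVCL for a test. A sub-cluster named angiogenic by its markers then held 179, 427 and 303 cells in pIVCL and 8 and 4 in sham, with Edn1 at 323, 102 and 212 CPM in pIVCL and no molecule in either sham library. The pericentral Edn1 change thus exists as a test after centring alone. Without centring the periportal name went to a different set of cells, 1160, 1068 and 291 in pIVCL and 575 and 820 in sham. With centring it covered 783, 829 and 330 cells in pIVCL and 1226 and 1109 in sham. Edn1 was called in the uncentred periportal cells, at 3.93 (edgeR adjusted p = 4.90e-05), which does not test the same cells again. Other marker lists moved with Edn1 in pericentral sinusoidal cells: the summed angiogenic list was at 2300, 2790 and 3329 CPM in pIVCL and 1140 and 1013 CPM in sham, and the pericentral list at 649, 463 and 614 CPM in pIVCL and 1489 and 1125 CPM in sham. With only cells that held no molecule of the large-vessel genes Vwf, Selp, Gja5, Fbln2, Clu and Bmx, a restriction chosen after the data were seen, Edn1 gave 5.64 in pericentral and 4.69 in periportal cells. That restriction kept 68.9, 64.4 and 37.6% of pericentral cells in pIVCL and 91.1 and 89.1% in sham. The part of these marker genes in the Edn1 values was not tested otherwise.

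The subtype that held most endothelial Edn1 also differed. Portal and arterial cells held 6.46, 10.7 and 3.87% of endothelial Edn1 molecules in pIVCL 1 to 3, against 70.3 and 70.5% in sham 1 and 2. Central vein cells held 51.3, 29.7 and 35.3% in pIVCL and 23.5 and 22.5% in sham. Pericentral cells held 30.7, 35.7 and 39.0% in pIVCL and 3.69 and 5.31% in sham. Both the number of cells of each subtype and the level per subtype enter these shares. With the subtypes set to 1 fixed mix, the mean over the 5 libraries, the log2 ratio of mean endothelial Edn1 was 1.18, against 1.88 with each library's own mix.

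Edn1 was also counted outside the named sinusoidal and vessel cells. Cycling endothelial cells had 190, 53.2 and 105 CPM in pIVCL (69 molecules in all) and none in either sham library, which makes the level at least 20.2-fold higher in pIVCL when 3 counts over the sham group are taken as the floor (edgeR adjusted p = 0.00295). In stellate cells 53 molecules were counted in pIVCL, at 3.06, 15.7 and 28.9 CPM, and none in sham, at least 2.69-fold on the same floor, with an edgeR adjusted p of 0.373. Summed endothelial markers in those stellate cells stood at 935, 4132 and 4755 CPM in pIVCL and 6192 and 7259 CPM in sham, with no marker of the 10 at 0. NK and ILC1 cells had 0, 50.1 and 70.1 CPM of Edn1 in pIVCL and 85.3 and 214 CPM in sham, but the endothelial marker list was at 259, 9283 and 631 CPM in pIVCL and 12306 and 2335 CPM in sham in the same cells. The part of endothelial RNA in these values was not tested.

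The promoter windows of Edn1 and of Ednrb, the pair of members that changed most and in opposite directions in endothelial cells, are printed for reference, since no file of this series measures binding or chromatin there. They run from 250 bases before to 30 bases after the start annotated by RefSeq on GRCm38.p6, a build other than that of the counts, at chr13:42301226-42301505 on the plus strand for Edn1 and chr14:103843672-103843951 on the minus strand for Ednrb. Letters in capitals mark matches on either strand to AGATAA (recognised by the GATA factor family), ACGTG (hypoxia response), TGANTCA (AP-1) and CACCC (KLF factors).
Edn1: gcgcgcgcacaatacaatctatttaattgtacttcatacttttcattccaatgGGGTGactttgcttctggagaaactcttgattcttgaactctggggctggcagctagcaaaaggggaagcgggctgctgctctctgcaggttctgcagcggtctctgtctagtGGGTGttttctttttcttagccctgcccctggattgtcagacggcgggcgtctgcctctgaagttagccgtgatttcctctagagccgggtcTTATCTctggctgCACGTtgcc
Ednrb: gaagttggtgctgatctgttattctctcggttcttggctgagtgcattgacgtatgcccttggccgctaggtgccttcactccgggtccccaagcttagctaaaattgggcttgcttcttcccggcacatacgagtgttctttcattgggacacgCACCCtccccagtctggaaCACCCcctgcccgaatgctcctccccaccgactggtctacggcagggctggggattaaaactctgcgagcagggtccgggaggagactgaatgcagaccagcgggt
Edn1 held AGATAA from +9, ACGTG from +22 and CACCC from -197 and -84, all read on the opposite strand, where +1 is the first transcribed base and each number is the leftmost base of the match in the printed sequence. Ednrb held CACCC from -95 and -76 on its own strand and none of the other motifs. Of 32851 windows of this length AGATAA was in 10.7%, ACGTG in 18.5%, TGANTCA in 7.46% and CACCC in 55.4%. The motifs were picked with the fold changes known, and a match here is a description of letters, not of a bound site.

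Ece1, which makes the active peptide, did not follow Edn1. Its endothelial level was 363, 275 and 347 CPM in pIVCL 1 to 3 and 332 and 329 CPM in sham, and the edgeR log2 fold change was -0.10 ± 0.15 (adjusted p = 0.729). Pericentral, periportal and portal and arterial values overlapped between the groups as well. Central vein cells were the exception: they had 434, 363 and 501 CPM in pIVCL and 962 and 957 CPM in sham, with all pIVCL libraries below both sham libraries. Ece1 fell there by 1.19 ± 0.22 on the log2 scale (edgeR adjusted p = 0.00119, 2.28-fold lower), in every fit that left out 1 library and within batch 2021.3 (-1.13). The pericentral change minus the central vein change was 1.06 ± 0.17 (edgeR adjusted p = 5.29e-05). The thinned share of central vein cells with Ece1 was 46.9, 50.0 and 43.6% in pIVCL and 75.7 and 69.6% in sham, and unthinned 81.5, 72.4 and 78.2% against 94.6 and 91.3%, at median depths of 4730 to 5556 molecules in pIVCL and 4813 and 4454 in sham. Sham held 37 and 23 central vein cells, so these sham values rest on few cells. In the central vein cells named without centring Ece1 was at 462, 454 and 505 CPM in pIVCL and 962 and 980 CPM in sham. In stellate cells Ece1 was at 393, 262 and 249 CPM in pIVCL and 335 and 359 CPM in sham, which overlap.

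Ednrb, the receptor gene of endothelium and stellate cells, moved in opposite directions in those classes. In stellate cells it stood at 2605, 1858 and 1744 CPM in pIVCL 1 to 3 and at 1276 and 1122 CPM in sham 1 and 2, that is 2069 ± 467 against 1199 ± 109 CPM (mean ± SD, n = 3 and 2 libraries), without overlap. The edgeR log2 fold change was 0.92 ± 0.22 with an adjusted p of 0.0966, which does not pass. In edgeR it passed without pIVCL 1 (0.72, adjusted p = 0.0343). In the libraries of batch 2021.3, where pIVCL 1 is the only pIVCL library, it was 1.23. In endothelial cells Ednrb was at 94.8, 51.5 and 100.03 CPM in pIVCL and at 369 and 236 CPM in sham, a fall of 1.98 ± 0.29 on the log2 scale (edgeR adjusted p = 0.0165, 3.94-fold lower). This edgeR call was lost without sham 1 (-1.64, adjusted p = 0.105) and in the libraries of batch 2021.3 (-1.72, adjusted p = 0.149). The stellate change minus the endothelial change was 2.92 ± 0.29 (edgeR adjusted p = 0.00124). It was 2.95 within batch 2021.3, and leaving out sham 1 gave 2.71 (adjusted p = 0.0847) and sham 2 gave 3.17 (adjusted p = 0.081).

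Among endothelial cells Ednrb belonged to the portal and arterial vessels. These had 2564, 1190.2 and 1429 CPM in pIVCL and 3397 and 2816 CPM in sham, with no overlap, and an edgeR log2 fold change of -0.88 ± 0.26 (adjusted p = 0.207). Among fits with 1 library left out it was called without pIVCL 1 only (-1.31, edgeR adjusted p = 0.000279). Of 8 other alternative fits 2 called it, over a range of -0.98 to -0.31. Periportal cells had 62.4, 8.26 and 26.1 CPM in pIVCL and 330.8 and 140.2 CPM in sham (-2.87 ± 0.89, adjusted p = 0.217). Sub-cluster 5, which also carried portal and arterial markers, held 191 of the periportal Ednrb molecules in pIVCL 1, 12 in pIVCL 2 and 27 in pIVCL 3, against 1936 in sham 1 and 731 in sham 2. Sub-cluster 3 held 10, 14 and 6 in pIVCL and 79 and 14 in sham, so in pIVCL 2 it held more than sub-cluster 5. Sub-cluster 5 stood at 153, 9.64 and 63.3 CPM in pIVCL and 858 and 375 CPM in sham, while sub-clusters 3 and 4 were at 9.87 or less in pIVCL and between 4.92 and 82.0 in sham. Pericentral cells had little in either group, 14.3, 14.0 and 37.0 CPM in pIVCL and 18.4 and 6.76 CPM in sham. In central vein cells sham 1 stood at 657 CPM and sham 2 at 16.2 CPM, from 129 and 2 molecules, and 1 cell held 70 of the 129, so the sham libraries set no common level there. The thinned share of portal and arterial cells with Ednrb was 80.6, 58.3 and 47.6% in pIVCL and 86.7 and 74.8% in sham, which overlap, and unthinned 88.9, 72.2 and 54.5% against 93.7 and 89.9%. With the subtypes in 1 fixed mix the log2 ratio of mean endothelial Ednrb was -1.27, against -1.88 with each library's own mix.

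Cycling endothelial cells formed an exception for the receptor gene too. Ednrb was at 72.5, 85.9 and 43.1 CPM in pIVCL and at 0 and 3.88 CPM in sham, with an edgeR log2 fold change of 4.87 ± 0.93 (adjusted p = 0.0158). The call was lost without pIVCL 2 (4.64) or without sham 1 (3.93), and each library held 22 to 36 cycling cells. Edn1 and Ednrb were thus the called members of the 4 tested there, where 1.06% of 5300 genes were called. The Ednrb values rest on 13, 21 and 9 molecules in pIVCL. The mean thinned share of cycling cells with Ednrb was 6.06% in pIVCL and 0% in sham. It was 3.29 and 0% in NK and ILC1 cells and 3.55 and 1.14% in macrophages low in Clec4f. In T cells it was 0 and 0.617%, and in monocytes 1.32 and 3.55%. The part of background RNA in the cycling values was not tested.

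The class that held most Ednrb molecules also differed between the groups. Stellate cells made up 10.8, 9.62 and 4.01% of retained cells in pIVCL 1 to 3 and 1.903 and 0.915% in sham 1 and 2. Stellate cells and fibroblasts together held 77.5, 84.7 and 74.8% of all Ednrb molecules in pIVCL 1 to 3 and 8.68 and 7.58% in sham 1 and 2. The difference of the means was 70.8 percentage points (two-sided exact permutation p = 0.2, the smallest possible, 0.233 after adjustment over the 7 genes). Endothelial cells held 14.8, 8.68 and 20.2% in pIVCL and 87.3 and 82.1% in sham. The same class pair held 90.9, 92.3 and 94.2% of Gucy1a1 molecules in pIVCL and 65.4 and 67.7% in sham, and 85.7, 86.0 and 89.0% of Gucy1b1 molecules in pIVCL and 49.8 and 29.9% in sham (exact permutation p = 0.2 for each). For Ece1 it held 15.9, 14.8 and 11.8% in pIVCL and 2.89 and 2.54% in sham. The preparation sets how many stellate and endothelial cells are captured, and its part in these shares was not tested.

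**Figure D3:**
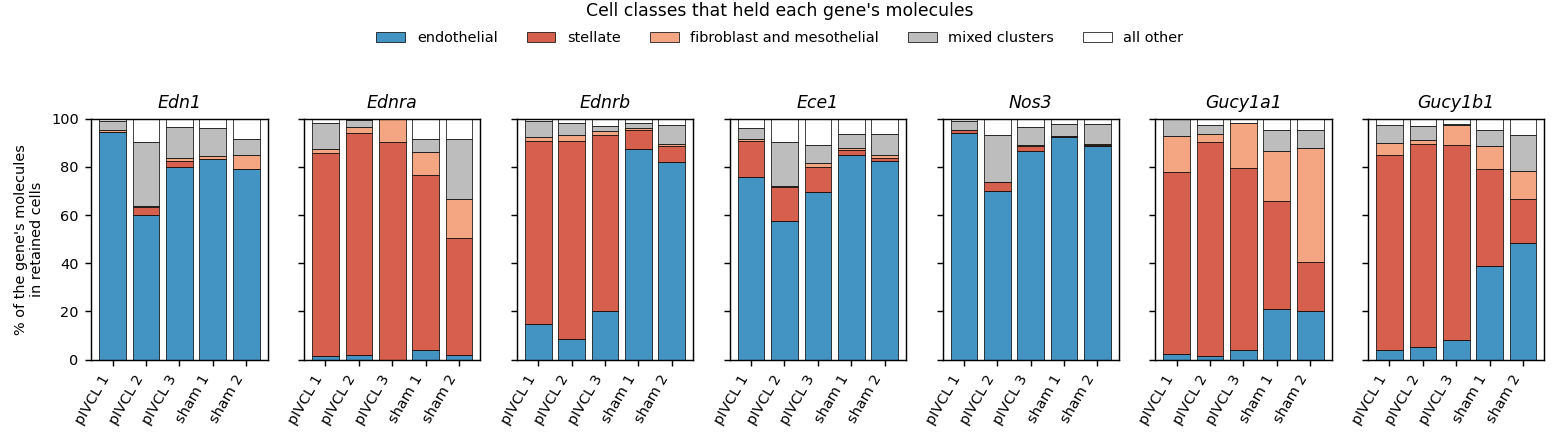
Share of each gene's molecules in retained cells (percent, bars from 0 to 100) held by endothelial cells, stellate cells, fibroblast and mesothelial cells, mixed clusters and all other cells, 1 bar per library with pIVCL left of sham. Stellate cells held 72.8 to 82.0% of Ednrb molecules in pIVCL and 8.07 and 6.44% in sham, while Edn1 and Nos3 stayed mostly endothelial in all 5 libraries.

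More stellate cells were Ednrb positive in pIVCL at equal depth. The thinned share was 92.3, 88.6 and 84.5% in pIVCL and 67.1 and 64.7% in sham, and the unthinned one 98.2, 98.5 and 90.0% in pIVCL and 84.1 and 79.4% in sham, at median depths of 4460, 4726 and 5557 molecules in pIVCL and 3750 and 5464 in sham. T cells, not known for Ednrb, gave thinned shares of 0% in all pIVCL libraries and 0.704 and 0.529% in sham. The stellate class itself differed between libraries in other markers. Lrat, which stores vitamin A as retinyl esters in stellate cells, was at 2465, 938 and 1375 CPM in pIVCL and 1713 and 2244 CPM in sham, and the summed vascular smooth muscle list of 6 genes was at 828, 1546 and 1471 CPM in pIVCL and 749 and 828 CPM in sham, with at most 1 gene at 0. The hepatocyte list was at 1767, 2149 and 1614 CPM in pIVCL and 424 and 249 CPM in sham, with at most 1 of 10 genes at 0. The endothelial list in stellate cells, given above with Edn1, was lower in every pIVCL library than in both sham libraries. Pecam1, a gene of that list, was at 20.7, 146 and 174 CPM in pIVCL and 218 and 319 CPM in sham. The part of all these markers in the Ednrb values was not tested. Fibroblast and mesothelial cells had 179, 543.9 and 72.8 CPM of Ednrb in pIVCL and 65.8 and 55.9 CPM in sham (2.12 ± 0.91, edgeR adjusted p = 0.413), where 1.51% of 7434 genes were called. The smooth muscle list in fibroblast and mesothelial cells moved too, at 3519, 2968 and 535 CPM in pIVCL and 377 and 194 CPM in sham.

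Ednra, the contraction receptor gene, was not called. Stellate cells and fibroblasts held 86.0, 94.7 and 100% of its molecules in pIVCL and 82.3 and 64.8% in sham (exact permutation p = 0.2). Stellate cells had 226, 133 and 121 CPM in pIVCL 1 to 3 and 299 and 254 CPM in sham 1 and 2, without overlap and opposite in direction to stellate Ednrb. The edgeR log2 fold change was -0.66 ± 0.28 (adjusted p = 0.363). It was called without pIVCL 1 (-0.98, adjusted p = 0.00830), and within batch 2021.3 it was -0.19. Fibroblast and mesothelial cells had 13.6, 33.4 and 20.5 CPM in pIVCL and 26.7 and 23.7 CPM in sham, and endothelial cells at most 0.716 CPM in any library, so Ednra did not pass the expression filter in endothelium. Both receptor genes were detected in the same stellate cell in 55.9, 44.6 and 45.5% of cells in pIVCL and 63.4 and 58.8% in sham. The product of the separate detection shares was 55.2, 43.9 and 42.5% in pIVCL and 54.4 and 49.0% in sham, and with Ednrb detected in nearly all pIVCL stellate cells these counts cannot show whether the receptors go together.

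Nos3, the endothelial nitric oxide synthase gene, was lower in pIVCL across the sinusoid and the central vein. Endothelial cells had 87.2, 85.1 and 85.4 CPM in pIVCL 1 to 3 and 152 and 125 CPM in sham 1 and 2, that is 85.9 ± 1.16 against 139 ± 18.9 CPM (mean ± SD, n = 3 and 2 libraries). Pericentral cells had 72.4, 83.8 and 86.5 CPM in pIVCL and 154 and 131 CPM in sham, periportal cells 89.6, 80.1 and 71.4 CPM against 135 and 109 CPM, and central vein cells 108, 124 and 123 CPM against 265 and 195 CPM. No pIVCL library reached either sham library in any of these subtypes. In portal and arterial cells the groups overlapped, at 284, 137 and 141 CPM in pIVCL and 243 and 212 CPM in sham. The pericentral change minus the portal and arterial change did not pass, at -0.56 ± 0.26 (edgeR adjusted p = 0.398).

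By edgeR, Nos3 fell by 0.78 ± 0.13 on the log2 scale in all endothelial cells (adjusted p = 0.0165), by 0.89 ± 0.14 in pericentral cells (adjusted p = 0.00568) and by 1.02 ± 0.28 in central vein cells (adjusted p = 0.0313). In periportal cells the value was -0.64 ± 0.16 (adjusted p = 0.0577), called without pIVCL 1 (-0.74, adjusted p = 0.00437), and in portal and arterial cells -0.29 ± 0.27 (adjusted p = 0.699). Within batch 2021.3 the values were -0.71 in all endothelial, -1.02 in pericentral and -1.09 (adjusted p = 0.112) in central vein cells. Leaving out 1 library kept the sign in all of these, but the endothelial call held without pIVCL 1 alone of the 5 (range -0.91 to -0.65), the central vein call without sham 2 alone (-1.20 to -0.77), and the pericentral call was lost without sham 1 (-0.79). The fixed subtype mix left Nos3 at -0.70, against -0.69 with each library's own mix. The thinned share of endothelial cells with Nos3 was 11.01, 9.78 and 11.5% in pIVCL and 19.5 and 16.8% in sham, and unthinned 25.7, 26.2 and 28.2% against 49.6 and 40.8%, at median depths of 4125.5 to 4493 molecules in pIVCL and 5149 and 4921 in sham. Kupffer cells gave at most 0.669% in any library after thinning.

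**Figure D4:**
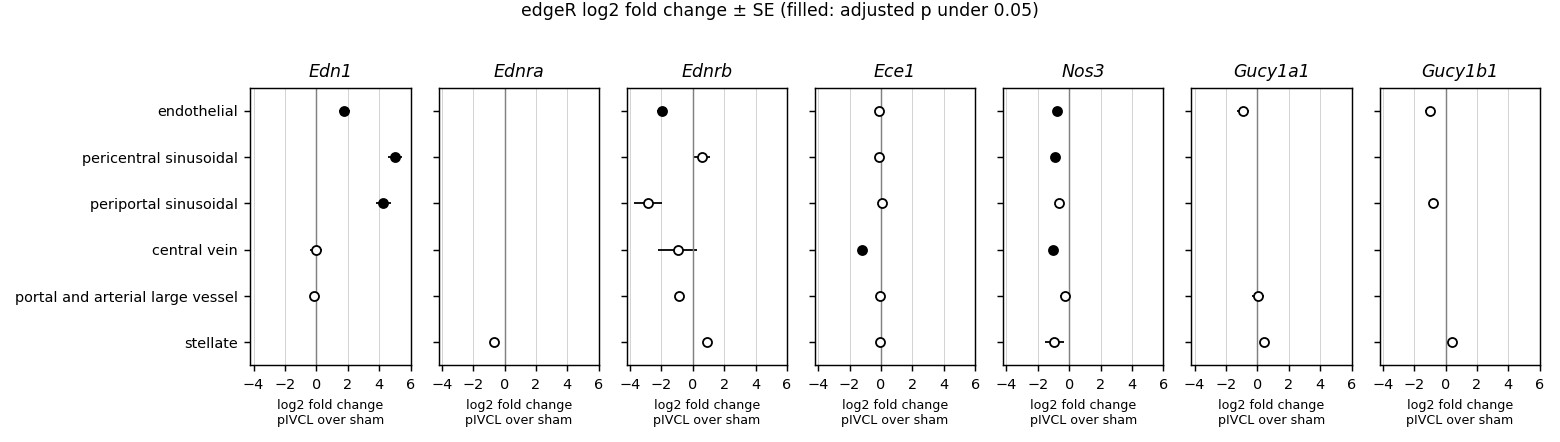
Log2 fold change of pIVCL over sham (x axis) with its SE from edgeR for each gene in the endothelial class, 4 endothelial subtypes and stellate cells (rows), filled where the adjusted p was under 0.05; an absent point did not pass the expression filter or, for Edn1 in stellate cells, had no molecule in sham. Edn1 was filled at 1.78, 5.0 and 4.25 in endothelial, pericentral and periportal rows, and Ednrb lay at -1.98 in endothelial and 0.92 in stellate cells.

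The receptor of nitric oxide was measured in stellate cells and fibroblasts, where neither subunit gene was called. Gucy1a1, the alpha subunit gene, stood at 407, 438 and 456 CPM in pIVCL 1 to 3 and 406 and 294 CPM in sham 1 and 2 in stellate cells, with an edgeR log2 fold change of 0.43 ± 0.21 (adjusted p = 0.438). Gucy1b1, the beta subunit gene, stood at 477, 347 and 351 CPM in pIVCL and 346 and 294 CPM in sham (0.42 ± 0.22, adjusted p = 0.483). The groups did not overlap for either gene, but their nearest libraries were close, at 407 against 406 CPM for Gucy1a1 and 347 against 346 CPM for Gucy1b1. Fibroblast and mesothelial cells had 285, 162 and 178 CPM of Gucy1a1 in pIVCL and 126 and 187 CPM in sham, and 106, 52.5 and 56.9 CPM of Gucy1b1 against 55.1 and 53.1 CPM, all overlapping. Both subunit genes were detected in the same stellate cell in 20.6, 20.3 and 25.2% of thinned cells in pIVCL and 25.6 and 17.6% in sham, and in 58.1, 68.6 and 62.7% of unthinned ones in pIVCL against 51.2 and 44.1% in sham.

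Endothelial cells had low levels of either subunit gene, highest in the portal and arterial vessels. These vessels held 12 of 15, 5 of 14 and 12 of 16 endothelial Gucy1a1 molecules in pIVCL and 67 of 73 and 53 of 57 in sham. Most endothelial Gucy1b1 molecules lay in periportal sinusoidal cells, with 24 of 32, 26 of 39 and 17 of 25 in pIVCL and 89 of 128 and 86 of 157 in sham. In the portal and arterial vessels Gucy1a1 was at 87.4, 36.1 and 129.9 CPM in pIVCL and 76.5 and 72.1 CPM in sham. Gucy1b1 in these vessels was at 29.1, 57.7 and 54.1 CPM in pIVCL and 30.8 and 77.6 CPM in sham. Over all endothelial cells Gucy1a1 was at 2.15, 1.99 and 4.78 CPM in pIVCL and 5.07 and 4.69 CPM in sham (-0.91 ± 0.40, edgeR adjusted p = 0.214). Gucy1b1 was at 4.58, 5.54 and 7.47 CPM in pIVCL and 8.88 and 12.9 CPM in sham (-1.02 ± 0.28, edgeR adjusted p = 0.0767). The subtype mix bears on the first of these: with 1 fixed mix the log2 ratio of mean Gucy1a1 was 0.41, against -0.72 with each library's own, while that of Gucy1b1 was -0.60 against -0.90. The stellate change minus the endothelial change was 1.399 ± 0.30 for Gucy1a1 (edgeR adjusted p = 0.0325) and 1.43 ± 0.31 for Gucy1b1 (adjusted p = 0.0455). Both were lost without pIVCL 2, sham 1 or sham 2, with ranges of 1.15 to 1.70 and 1.09 to 1.85 over the 5 fits with 1 library left out, and were 1.57 and 1.95 within batch 2021.3.

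Counted together, 6 of the 7 genes were tested in endothelial cells, where Edn1 rose, Ednrb and Nos3 fell and 3 did not pass, in a population in which 5.08% of 11337 genes were called. In stellate cells all 7 were tested and none passed at an adjusted p of 0.05, with 0.872% of 8257 genes called. In stellate cells 3 of the 7 had an unadjusted edgeR p under 0.05, and DESeq2 called 0. The share of all genes at an unadjusted p under 0.05 is not given here. Counts at that threshold, here and for the pathway lists below, therefore have no background and cannot be set against the shares of genes called. Of 4 tested in pericentral cells, Edn1 rose and Nos3 fell (8.36% of all genes called), and of 5 in periportal cells Edn1 rose (3.23%). Of 4 tested in central vein cells, Ece1 and Nos3 fell (4.45%), and of 5 in portal and arterial cells none passed (0.152%), with 1 at an unadjusted edgeR p under 0.05 and 0 called by DESeq2. The difference between the stellate and endothelial changes was called for Ednrb, Gucy1a1 and Gucy1b1 of 7 genes, against 0.738% of 11378 genes. That between pericentral and central vein cells was called for Edn1 and Ece1 of 4 genes, against 2.62%. The medians of the members' log2 fold changes were -0.84 in endothelial and 0.42 in stellate cells, against 0.0036 and 0.0147 over all genes tested.

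Genes around these members in the same pathways were read from lists chosen with earlier results of these data known. Of 21 other endothelin pathway genes 14 were tested in endothelial cells, of which 2 rose and 2 fell, where 5.08% of all genes were called. In that list 7 had an unadjusted edgeR p under 0.05 and DESeq2 called 4. Rgs2, a regulator that shortens signalling by the G proteins of this receptor family, was at 121, 165 and 273 TMM-scaled CPM in pIVCL and 31.6 and 34.0 in sham (log2 fold change 2.50 ± 0.34, edgeR adjusted p = 0.0124). Itpr1, an inositol trisphosphate receptor, was at 71.9, 65.1 and 87.2 in pIVCL and 38.5 and 43.7 in sham on that scale (0.86 ± 0.16, adjusted p = 0.0248). The falls were those of Plcb1, a phospholipase C that makes inositol trisphosphate, by 2.38 ± 0.19 (adjusted p = 0.00146), and Arrb2, a beta-arrestin that desensitises receptors, by 1.15 ± 0.17 (adjusted p = 0.0113). Of 14 tested in pericentral cells, where 8.36% of all genes were called, the same 4 were called with the same signs, together with Arrb1 and Plcb4, which fell. Periportal cells called Plcb1 (-2.04) and Arrb2 (-1.07) of these, where 3.23% of all genes were called. In central vein cells Rgs2 rose by 2.59 and Rock2, a kinase that keeps myosin phosphorylated, fell by 0.87 (edgeR adjusted p = 0.00102 and 0.0347). Of all genes 4.45% were called there. The median log2 fold change of the tested endothelin list was -0.16 in endothelial cells, against 0.0036 over all genes.

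Of 28 genes of nitric oxide synthesis 26 were tested in endothelial cells and only Nostrin passed in edgeR, where 5.08% of all genes were called. Nostrin, which traffics the synthase away from the membrane, fell by 0.85 ± 0.19 (edgeR adjusted p = 0.0415). Its values were 109, 149 and 94.4 TMM-scaled CPM in pIVCL and 224 and 201 in sham. In that list 9 genes had an unadjusted edgeR p under 0.05 and DESeq2 called 4. Cav1, whose product binds and restrains the synthase, gave -0.89 ± 0.22 (adjusted p = 0.0621) over all endothelial cells, and in pericentral and central vein cells it fell, by 1.32 ± 0.30 and 2.49 ± 0.35 (adjusted p = 0.0294 and 4.6e-05). Gch1, which makes the synthase cofactor tetrahydrobiopterin, fell by 0.89 ± 0.24 in pericentral cells (adjusted p = 0.0465). Of all genes 8.36% were called in pericentral and 4.45% in central vein cells. The list's median was 0.16 in endothelial cells. Of 25 cyclic GMP genes 12 were tested there and Npr3, the clearance receptor of natriuretic peptides, fell by 1.76 ± 0.21 (adjusted p = 0.00556), with levels of 13.8, 13.3 and 8.30 TMM-scaled CPM in pIVCL and 37.9 and 44.3 in sham. Npr3 led the genes of the portal and arterial sub-cluster, whose share of endothelial cells was lower in pIVCL. Vasp, a cytoskeletal protein phosphorylated by the cyclic GMP kinase, did not pass over all endothelial cells but rose by 0.78 in pericentral and 1.35 in central vein cells (edgeR adjusted p = 0.0328 and 0.009). The median of the cyclic GMP list was -0.10 in endothelial cells, where 3 of its genes had an unadjusted edgeR p under 0.05 and DESeq2 called 2. The genes named here for a subtype alone (Arrb1, Plcb4, Rock2, Gch1 and Vasp) were picked after their values were seen.

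In stellate cells none of the 15, 22 and 13 tested genes of the endothelin, nitric oxide synthesis and cyclic GMP lists passed in edgeR, while 7, 2 and 3 had an unadjusted p under 0.05 and DESeq2 called 0, 0 and 1 (Npr3). The lowest p-values belonged to Npr3, at 476, 348 and 291 TMM-scaled CPM in pIVCL and 171 and 132 in sham (1.27 ± 0.27, edgeR adjusted p = 0.0574), and to Arrb2 (-1.45 ± 0.32, adjusted p = 0.0687) and Rgs4, another brake on G-protein signalling (1.22 ± 0.29, adjusted p = 0.0954). Prkg1, the kinase activated by cyclic GMP, gave 0.76 ± 0.22 (adjusted p = 0.174), at 259, 220 and 249 TMM-scaled CPM in pIVCL and 159 and 122 in sham. Pde5a, which breaks cyclic GMP down, gave 0.73 ± 0.26 (adjusted p = 0.293). The medians of the 3 lists were -0.04, 0.12 and 0.30, against 0.0147 over all genes tested in stellate cells.

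The genes whose levels were most like those of each member over 45 units (9 classes by 5 libraries) followed the cell types above. Pearson's r of log2(CPM + 1), among 9460 genes, was highest for Edn1 with Fbln2 (0.853), Fzd6 (0.825) and Ctnnal1 (0.806), for Nos3 with the endothelial phosphatase gene Ptprb (0.908), Exoc3l2 (0.884) and Mmrn2 (0.876), and for Ece1 with Il6st (0.896), Chst15 (0.857) and Nr2f2 (0.831). Ednra was most like Adra2b (0.965), Adcy5 (0.964) and Arvcf (0.941), and Ednrb most like Raph1 (0.895), Hgf (0.873) and Masp1 (0.852). Gucy1a1 was most like Cd248 (0.958), Gpc6 (0.955) and Pamr1 (0.944), and Gucy1b1 like Ccbe1 (0.941), Nr1h4 (0.908) and Hand2 (0.907). The units of a library share its depth and preparation, and no p-value is given.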

How the data were processed

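The values analysed were counts of molecules per gene and cell in 5 single-cell libraries of mouse liver non-parenchymal cells. The authors made these counts with the BD Rhapsody whole-transcriptome pipeline 1.9.1 on GRCm39, per the file headers, after recursive substitution error correction of the molecular identifiers. The sources used here do not give the gene annotation or the aligner. No correction for free RNA was made.

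Cells with at least 500 molecules, 200 genes and at most 25% mitochondrial molecules were kept, and the 3% with the highest Scrublet doublet score were removed from each library (516 of 17188 cells). Clustering (scanpy 1.11.5, igraph 0.11.9) used 1979 variable genes without the 7 members and their pathway lists, 30 components, 20 neighbours and Leiden resolution 1, which gave 31 clusters. Endothelial cells were centred by library and divided at resolution 0.6 into 11 sub-clusters. A class name needed at least 3 and at least 50% of its markers, each in at least 25% of cells and 2-fold over the rest. An endothelial sub-cluster of at least 50 cells took the subtype whose markers had the highest mean standardised level, given at least 3 markers in at least 10% of cells and 1.5-fold over the rest, with no minimum percent of markers. Sub-cluster 1 of the pericentral class had 3 of 8. The alternative without centring used resolution 1. These naming thresholds were set after the clusters were seen. Shares of cells with a molecule were also computed after each cell was thinned to 1500 molecules, leaving out shallower cells.

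Molecules were summed per library and population, where every library had at least 20 cells. The sums were tested with edgeR 4.0.16 (R 4.3.3, quasi-likelihood with robust dispersion, TMM scaling, the edgeR expression filter, Benjamini-Hochberg adjustment over all genes of a population, threshold 0.05). The difference between 2 populations' changes was an interaction term with the library as a block. DESeq2 1.42.0 was an alternative to edgeR. The fits were tested on simulated data. Molecule shares were compared by a two-sided exact permutation test over the 10 splits of 5 libraries. Counting error alone is covered by floors, set at 3 counts. The members, pathway lists, markers and tests were chosen with earlier results of these data known. All 7 members are named, and of the pathway lists every gene called in endothelial or stellate cells with at most 4 of the lowest p-values per list that did not pass. For likeness, the 3 genes of highest correlation with each member are named. Of the 25 cyclic GMP genes 24 were matched in the files. Promoter windows came from RefSeq on GRCm38.p6, where 6 of the 7 members were matched, and were not joined to the counts by coordinate.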

Additional observations from a re-analysis of the deposited data

Results flagged for a closer look

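In 5 cases the effect of pIVCL on a member differed between a pair of cell populations by edgeR's test of the difference itself (Benjamini-Hochberg adjusted over all genes tested), and each is given here as a value with no explanation. For Ednrb the log2 fold change in stellate cells minus that in endothelial cells was 2.92 ± 0.29 (adjusted p = 0.00124). The same difference was 1.399 ± 0.30 for Gucy1a1 (adjusted p = 0.0325) and 1.43 ± 0.31 for Gucy1b1 (adjusted p = 0.0455), with positive values in stellate and negative ones in endothelial cells. With the subtypes in 1 fixed mix the log2 ratio of mean endothelial Gucy1a1 was 0.41, against -0.72 with each library's own mix. For Edn1 the pericentral sinusoidal change minus the central vein change was 4.99 ± 0.37 (adjusted p = 1.09e-06). For Ece1 that difference was 1.06 ± 0.17 (adjusted p = 5.29e-05), where central vein cells had a lower level in pIVCL than in sham.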

How the results depend on the processing

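Apart from fits with 1 library left out, 275 values kept their direction and call (or stayed within the replicate SD or 1.5 times the count), 9 lost a call, 15 gained one, 58 moved and 19 reversed. With 1 library left out the counts were 138, 24, 9, 35 and 9. Endothelial Gucy1a1, which turned from -0.72 to 0.41 with the fixed subtype mix, was counted as moved and not as reversed. Causes were not tested, except that a fit on batch 2021.3 alone or without a library uses fewer samples. The restriction to cells without large-vessel genes, the removal of sub-clusters led by genes of other cell types, the differences between subtypes and the fixed subtype mix were chosen after seeing the data. Depth was lower in pIVCL, and sham held 82 and 34 stellate and 37 and 23 central vein cells, which limits what could be called there. Batch 2021.7 holds no sham library. The fits with batch as a term and on batch 2021.3 alone therefore both set pIVCL 1 against the sham libraries. They are not separate alternatives. Without centring (and at resolution 1) pericentral cells could not be tested, since pIVCL 3 held 0 of them.

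Genes called in endothelial cells numbered 1048 with DESeq2, 1769 with no filter on low counts, 360 with batch as a term and 870 within batch 2021.3, and 63 to 2556 with 1 library left out. In stellate cells there were 395 with no filter, 425 with batch as a term, 382 within batch 2021.3 and 142 at Leiden resolution 2 (4 to 360 with 1 library left out). In pericentral cells there were 1537 with no filter, 545 with batch as a term and 507 in cells without large-vessel genes (168 to 2300). In periportal cells there were 988 with no filter and 580 within batch 2021.3 (41 to 1613). In central vein cells there were 142 with DESeq2, 117 with batch as a term and 165 within batch 2021.3 (105 to 288). Genes called for the stellate minus endothelial difference numbered 387 within batch 2021.3 (8 to 250).

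With the replicate block, genes called numbered 370 in stellate, 445 in pericentral, 210 in periportal and 119 in central vein cells. The correlation of deviations between libraries of the same number was -0.145 and -0.129 in endothelial and 0.105 and 0.0763 in stellate cells, so the libraries share only a number. Under the replicate block stellate Ednrb passed at 1.02 and central vein Nos3 did not at -1.03, and the uncalled Ece1 in stellate cells and Edn1 in portal and arterial cells turned to 0.043 and 0.086.

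With batch as a term, calls were lost for Edn1 in endothelial (2.10) and pericentral cells (5.10), Ednrb in endothelial cells (-1.71) and Nos3 in central vein cells (-1.13). Within batch 2021.3 they were lost for endothelial Ednrb (-1.72) and central vein Nos3 (-1.09), and DESeq2 lost central vein Nos3 (-1.03). Stellate Ednrb passed with no filter (0.98), resolution 2 (0.95) and the stricter cell filter (1.12). It was 1.23 both with batch as a term and in batch 2021.3 alone, where the effect rests on pIVCL 1. Signs that turned belonged to uncalled values. Ece1 was 0.10 and 0.091 in endothelial, 0.30 and 0.30 in stellate and 0.075 and 0.060 in pericentral cells with batch as a term and in batch 2021.3 alone, 0.00022 in stellate cells at resolution 2 and -0.054 in periportal cells without centring. Edn1 in central vein cells was 0.031 with no filter, 0.62 and 0.65 in those batch fits and 0.16 without centring. In portal and arterial cells Edn1 was 0.28 and 0.29 and Nos3 0.28 and 0.28 in the batch fits. The mesenchymal share of Edn1 was 0.788 points higher in pIVCL with doublets kept, against -0.501 without them.

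With 1 library left out, Edn1 ranged over 1.58 to 2.08 in endothelial, 4.69 to 5.30 in pericentral, 3.86 to 4.84 in periportal, -0.50 to 0.28 in central vein and -0.43 to 0.11 in portal and arterial cells. Ednrb ranged over -2.26 to -1.64 in endothelial and 0.72 to 1.02 in stellate cells. Nos3 ranged over -0.91 to -0.65 in endothelial, -0.997 to -0.79 in pericentral and -1.20 to -0.77 in central vein cells. Ece1 ranged over -1.28 to -1.08 in central vein, -0.20 to 0.0056 in endothelial, -0.053 to 0.15 in periportal and -0.29 to 0.044 in stellate cells. The stellate minus endothelial difference ranged over 2.67 to 3.17 for Ednrb, 1.15 to 1.70 for Gucy1a1 and 1.09 to 1.85 for Gucy1b1. The pericentral minus central vein difference ranged over 4.65 to 5.37 for Edn1 and 0.98 to 1.10 for Ece1, and the pericentral minus portal and arterial difference over 4.63 to 5.43 for Edn1.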
